A study of Mus musculus with 6 samples.

Results

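Liver RNA was compared for 38 genes of the cell cycle and of DNA replication in mice that lack SMP30/GNL and in wild type mice. The genes were a fixed list of cyclins, cyclin-dependent kinases (CDKs), replication factors and mitotic regulators. Each was represented by the probe set annotated to its symbol alone, and where a gene had more than 1 such probe set by the one with the highest mean. A probe set was found for 37 of the 38, out of 19550 genes with a value. Ccnb1 was not analysed here.

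All mice were males of the C57BL/6NCrSlc background and all ate the ascorbic acid (AA, vitamin C) deficient CL-2 diet, with 2 arrays in each of 3 groups. SMP30, encoded by Rgn, is the gluconolactonase that mice use to make their own AA. The AA-deficient group were SMP30/GNL knockouts labelled as kept on the deficient diet. The AA-supplemented group were SMP30/GNL knockouts labelled as supplemented, with AA in drinking water at a level said to keep tissue AA normal and with EDTA as stabiliser. The wild type group had the functional gene and a diet labelled as deprived of vitamin C. Whether the other groups drank EDTA is not stated. Neither the age of the mice nor the length of feeding is given in the sources used here, nor whether an array holds RNA of 1 animal or of several. The p-values therefore measure the spread between these arrays, which may be technical.

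The cell cycle runs from growth (G1) through DNA synthesis (S) and a second gap (G2) to mitosis (M). D-type cyclins with CDK4 or CDK6 and E-type cyclins with CDK2 drive entry into S phase, partly by releasing E2F transcription factors, which switch on replication genes. Cyclins A and B with CDK1 drive G2 and mitosis. Most hepatocytes of an adult liver are quiescent, and they can re-enter the cycle after injury or partial hepatectomy. Many are polyploid, a state in which E2F8, a repressor among the E2F factors, takes part.

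Levels are the log expression values as deposited, whose base is unstated and taken to be 10. Differences are in the same log units, with a standard error (SE), and every fold rests on that base. Rgn, the gene removed in the knockouts, was at 0.229 and 0.297 in AA-deficient knockouts and at 0.339 and 0.141 in AA-supplemented knockouts, against 2.07 and 1.996 in wild type. Array medians lay between 0.350 and 0.392, and the arrays of a group correlated at 0.973 (AA-deficient knockouts), 0.965 (AA-supplemented knockouts) and 0.9754 (wild type) over all probe sets. All 9 measured hepatocyte markers, among them Alb and Apoa1, ranked between the percentiles 98.5 and 99.95 of all genes. The number of arrays limits the precision: the 95% interval of a difference had a median width of 0.113 log units to each side among the tested genes of the list, 1.30-fold.

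Of the 37 genes, 26 had a mean value at or above the 25th percentile of all genes and were tested. The other 11 fell below it, with percentiles from 5.19 to 24.4. These were Ccne2, Cdc6, Gins1, Top2a, Aurka, Aurkb, Bub1, Cenpe, Ttk, Mki67 and Foxm1, 5 of which serve the mitotic spindle or its checkpoint. Probe sets differ in how brightly they hybridise, and no detection call was used. A low rank therefore does not give the order of transcript abundance, and it cannot be separated from background. Of the 37 genes, 11 had a mean value at or above the 50th percentile of all genes. The values of all 37 genes by array show Cdk4, Pcna, Cdk6 and Ccnd1 as the brightest by mean value.

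**Figure D1:**
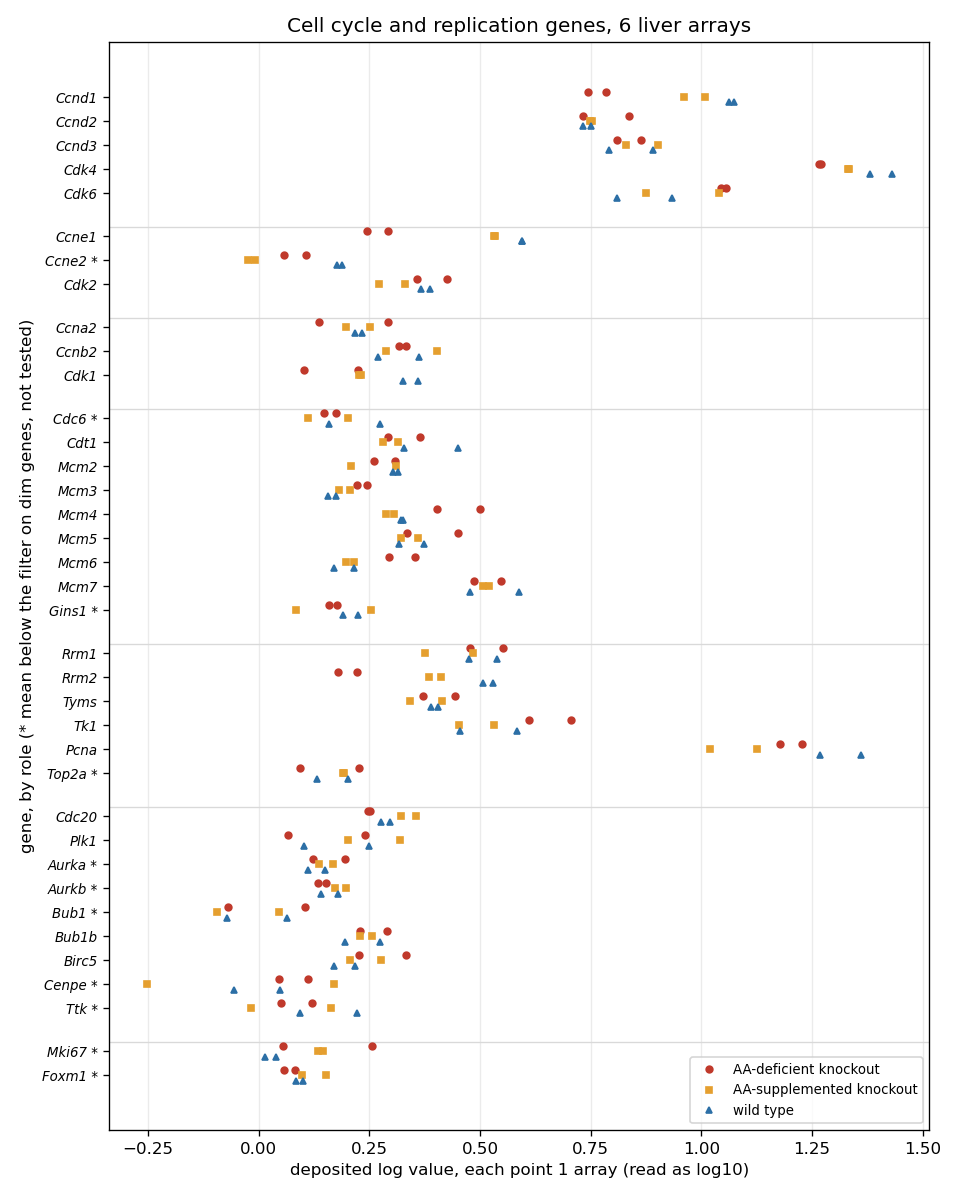
Deposited log value (x axis, read as log10) of each of the 37 genes (y axis, grouped by role) on each of 6 arrays. Circles are AA-deficient knockouts, squares AA-supplemented knockouts and triangles wild type. The circles of Ccnd1, Ccne1 and Rrm2 lie to the left of every other point of their rows. Asterisks mark the 11 genes below the filter.

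Of the list, 3 genes fell in AA-deficient knockouts against wild type: the cyclins Ccnd1 and Ccne1 and the ribonucleotide reductase subunit Rrm2, each about 2-fold lower. They were 3 of 26 tested, where 4.63% of all 14662 genes tested were called in either direction and 1.55% were lower by the same rule (limma, Benjamini-Hochberg adjusted p under 0.05). None of the 26 was called higher, where 3.08% of all genes were. At an unadjusted p under 0.05 there were 9 of the 26, and 20.4% of all genes reached it. In the F test of limma over the 3 groups the same 3 genes passed, where 1.36% of all genes did. The calls rested on having both arrays: without AA-deficient array 1 Ccne1 alone of them was called, and without AA-deficient array 2 or either wild type array 0 of the 26 were. Leaving out a wild type array also left 1 call among all genes. In whole-liver RNA, fewer cells that express a gene and less RNA per cell cannot be told apart.

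Cyclin D1, the product of Ccnd1, is the main D-type cyclin of regenerating hepatocytes. Ccnd1 (Entrez 12443) was at 0.743 and 0.784 in AA-deficient knockouts and at 0.961 and 1.01 in AA-supplemented knockouts, against 1.07 and 1.06 in wild type. The AA-deficient arrays were the lowest, the wild type arrays the highest, and no groups overlapped. The difference between AA-deficient knockouts and wild type was -0.30 (SE 0.042, 2.01-fold lower, adjusted p = 0.0142 in limma). Between AA-deficient and AA-supplemented knockouts it was -0.22 (SE 0.042, 1.66-fold lower, adjusted p = 0.118), and between AA-supplemented knockouts and wild type -0.084 (SE 0.042, adjusted p = 0.539).

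The other D-type cyclins gave differences near 0. Ccnd2 was at 0.837 and 0.732 in AA-deficient knockouts and 0.753 and 0.749 in AA-supplemented knockouts, against 0.751 and 0.732 in wild type. Its difference from wild type in AA-deficient knockouts was 0.043, with a 95% interval from -0.066 to 0.15. For Ccnd3 that difference was -0.0045, with an interval from -0.12 to 0.11. Both intervals exclude a fall as large as that of Ccnd1, although the difference between the cyclins was not itself tested.

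The kinases that pair with D-type cyclins lay on opposite sides. Cdk4 was at 1.265 and 1.271 in AA-deficient knockouts and at 1.330 and 1.334 in AA-supplemented knockouts, against 1.43 and 1.38 in wild type, so that its groups stood apart in the same order as for Ccnd1. Its difference from wild type in AA-deficient knockouts was -0.14 (SE 0.041, adjusted p = 0.104 in limma). Cdk6 was at 1.055 and 1.045 in AA-deficient knockouts and 0.875 and 1.04 in AA-supplemented knockouts, against 0.809 and 0.933 in wild type. The AA-deficient arrays were the highest, with a difference of 0.18 from wild type (SE 0.065, adjusted p = 0.169). Neither kinase passed. With a mean-dependent prior in limma (eBayes with trend) Cdk4 was also called lower, in a setting that called 1271 of all genes against 679 without it.

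Cyclin E1, the product of Ccne1, activates CDK2 at the start of S phase and takes part in hepatocyte endoreplication. Ccne1 (Entrez 12447) was at 0.292 and 0.245 in AA-deficient knockouts and at 0.531 and 0.534 in AA-supplemented knockouts, against 0.595 and 0.596 in wild type. Its 3 groups were apart, and the AA-deficient arrays lay far below the rest. They lay within the range of 0.141 to 0.339 that Rgn, the deleted gene, had in the knockouts, and were not shown to be above background. The folds of Ccne1 are therefore measured values that may be lower bounds. The difference from wild type was -0.33 (SE 0.040, 2.12-fold lower, adjusted p = 0.0104 in limma). Against AA-supplemented knockouts it was -0.26 (SE 0.040, 1.83-fold lower, adjusted p = 0.0655), the smallest adjusted p of the list in that comparison.

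Ccne2, the other E-type cyclin, was below the filter, with 0.056 and 0.107 in AA-deficient knockouts and -0.0091 and -0.024 in AA-supplemented knockouts, against 0.187 and 0.176 in wild type. Here the AA-supplemented arrays were the lowest, an order unlike that of Ccne1. Cdk2 itself was at 0.357 and 0.425 in AA-deficient knockouts and 0.330 and 0.272 in AA-supplemented knockouts, against 0.387 and 0.366 in wild type. Its difference between AA-deficient knockouts and wild type was 0.015, with an interval from -0.089 to 0.12.

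Ribonucleotide reductase makes the deoxynucleotides for DNA synthesis from a large subunit, Rrm1, and a small subunit, Rrm2, whose supply follows S phase. Rrm2 (Entrez 20135) was at 0.179 and 0.221 in AA-deficient knockouts and at 0.413 and 0.385 in AA-supplemented knockouts, against 0.528 and 0.505 in wild type. The groups were again apart in the order of AA-deficient, AA-supplemented and wild type. As for Ccne1, the AA-deficient arrays lay in the range of Rgn in the knockouts, and also near the filter value of 0.185, so the folds may be lower bounds. The difference was -0.32 against wild type (SE 0.041, 2.07-fold lower, adjusted p = 0.0115 in limma) and -0.20 against AA-supplemented knockouts (SE 0.041, 1.58-fold lower, adjusted p = 0.141). Rrm1 differed from wild type by 0.0084 in AA-deficient knockouts, with an interval from -0.11 to 0.13, and its groups overlapped.

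The windows before the starts of Ccne1 and Rrm2, the called genes with an entry in the promoter table used here, are printed beside those of Cdk1 and Mcm6. Cdk1 stood in the same order of groups without passing, and Mcm6 lay on the other side of wild type. Each run is the 250 bases before the annotated start in RefSeq (GRCm38.p6), read in the direction of the gene, at chr7:38107491-38107740 (minus strand), chr12:24708004-24708253 (plus strand), chr10:69352913-69353162 (minus strand) and chr1:128359706-128359955 (minus strand). Capitals mark E2F-type letters, on either strand, which are TTGGCGC and its variants with other middle letters, namely TTGCCGC, then also TTCGCGC, and lastly TTCCCGC. Where matches on the 2 strands overlap, as in Mcm6, the capitals form a single run.
Ccne1: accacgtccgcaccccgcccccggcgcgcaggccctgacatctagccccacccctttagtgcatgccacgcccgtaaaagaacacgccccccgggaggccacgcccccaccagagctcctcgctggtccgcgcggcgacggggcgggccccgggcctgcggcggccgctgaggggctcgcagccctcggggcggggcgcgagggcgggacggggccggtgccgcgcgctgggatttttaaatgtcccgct
Rrm2: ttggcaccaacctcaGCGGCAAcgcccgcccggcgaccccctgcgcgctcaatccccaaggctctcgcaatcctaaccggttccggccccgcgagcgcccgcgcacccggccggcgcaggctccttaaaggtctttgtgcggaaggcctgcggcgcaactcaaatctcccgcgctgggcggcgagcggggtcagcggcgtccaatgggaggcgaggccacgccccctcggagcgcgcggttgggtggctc
Cdk1: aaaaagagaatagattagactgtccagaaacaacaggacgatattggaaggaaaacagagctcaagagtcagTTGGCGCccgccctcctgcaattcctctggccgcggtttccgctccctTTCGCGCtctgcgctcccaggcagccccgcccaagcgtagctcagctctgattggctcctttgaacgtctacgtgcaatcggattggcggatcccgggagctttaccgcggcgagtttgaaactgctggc
Mcm6: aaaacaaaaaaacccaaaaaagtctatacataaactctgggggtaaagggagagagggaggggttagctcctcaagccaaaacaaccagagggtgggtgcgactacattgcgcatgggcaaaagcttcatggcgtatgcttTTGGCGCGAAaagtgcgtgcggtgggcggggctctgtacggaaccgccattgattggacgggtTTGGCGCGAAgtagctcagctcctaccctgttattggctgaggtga

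The Ccne1 window held none of these letters and that of Rrm2 held 1 match. Cdk1 held 2, beside 2 matches to TTTGAA, the letters of the cell cycle homology region (CHR), and 3 to CCAAT, the CCAAT box. In the Mcm6 window 4 overlapping matches formed 2 runs, beside 2 CCAAT matches. The letters ATTGG of a CCAAT box on the other strand share TTGG with TTGGCGC, so the 2 motifs can overlap. Of 29 genes of the list with such a window, 9 (31%) held an E2F-type match, against 7.97% of 27025 genes. CCAAT was found in 20 (69%), against 34.5%, and TTTGAA in 6 (20.7%), against 16.3%. The windows of the list were richer in G and C, with a median of 56.8% against 52%. A match is a description of letters, and no binding was measured here. Other letters, and bases outside the window, were not searched, so an absent match does not show that a gene lacks E2F sites.

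Of the genes of S phase, G2 and mitosis, Cdk1 came nearest to the called genes. It was at 0.103 and 0.224 in AA-deficient knockouts and at 0.227 and 0.230 in AA-supplemented knockouts, against 0.359 and 0.326 in wild type. The wild type arrays were the highest, while AA-deficient array 2 almost touched the supplemented arrays. Its difference between AA-deficient knockouts and wild type was -0.18 (SE 0.050, 1.51-fold lower), and it did not pass (adjusted p = 0.0883 in limma). All knockout arrays of Cdk1, and wild type array 2, lay within or below the range of Rgn in the knockouts. They were not shown to be above background, which limits both the order of groups and the fold. Of the cyclins that activate CDK1, Ccna2 and Ccnb2 did not show the order of groups of Cdk1, and Ccnb1 was not analysed. All arrays of Ccna2 and most of Ccnb2 also lay within or below the range of Rgn in the knockouts. A shared order could therefore have been missed. Ccna2 differed from wild type by -0.012 in AA-deficient knockouts, with an interval from -0.14 to 0.12, and Ccnb2 by 0.0085, with an interval from -0.12 to 0.13.

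Complete separation of all 3 groups, with AA-deficient arrays lowest and wild type arrays highest, was seen for Ccnd1, Ccne1, Rrm2, Cdk1 and Cdk4. These are 5 of the 26 tested genes, where 4.01% of all genes tested had that order. The opposite order was seen for 1 gene of the list, Mcm3, where 5.73% of all genes had it. When AA-deficient knockouts and wild type alone are set side by side, 7 of 26 genes had all AA-deficient arrays below wild type and 6 had them above, where 26.9% and 27.6% of all genes did. Those counts are near the background. The median difference of the list was 0.0020, against -0.0034 over all genes tested.

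**Figure D2:**
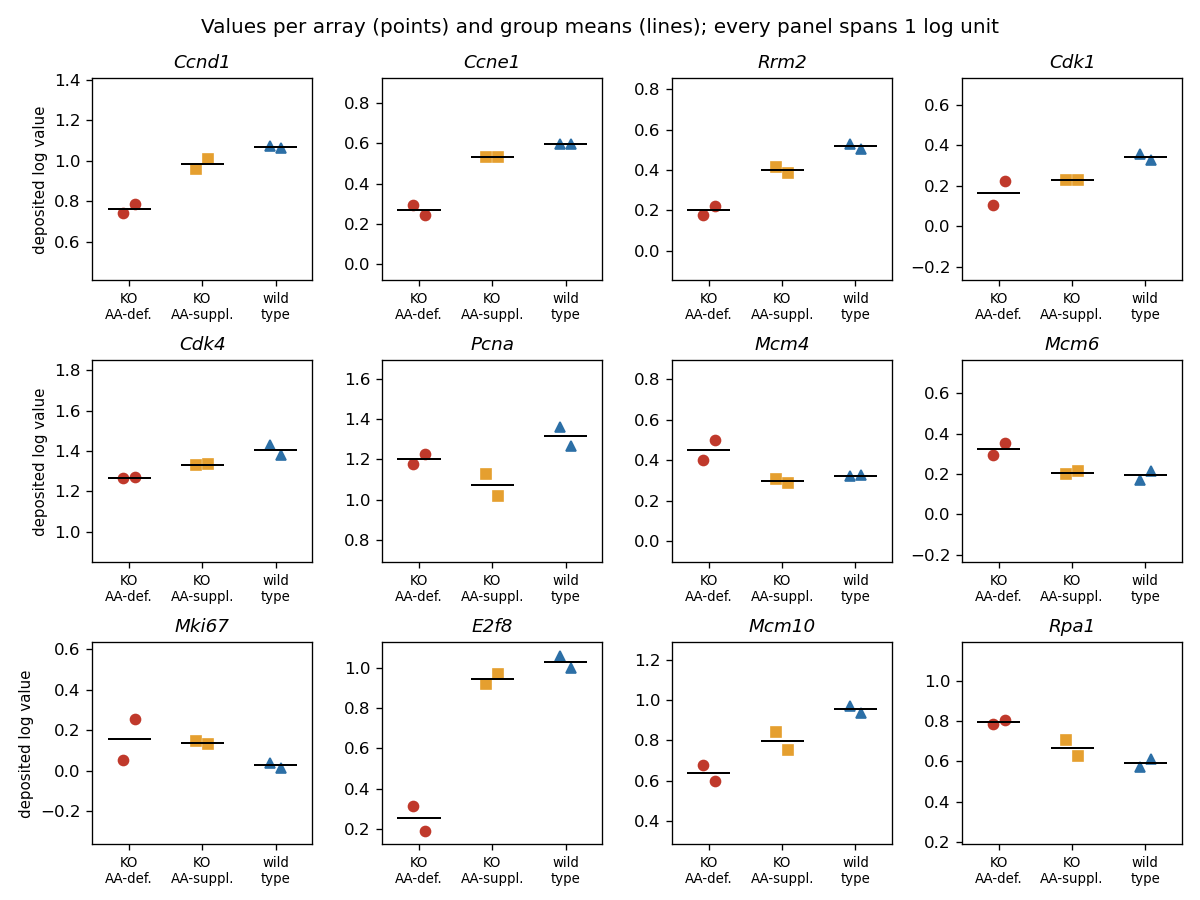
Deposited log value (y axis, a span of 1 log unit in every panel) on each array, with points for arrays and lines for group means, in AA-deficient knockouts, AA-supplemented knockouts and wild type from left to right. Ccnd1, Ccne1, Rrm2, Cdk1, Cdk4, E2f8 and Mcm10 were lowest in the AA-deficient arrays, while Mcm4, Mcm6 and Rpa1 were highest there. Pcna was lowest in the AA-supplemented arrays, and the AA-deficient arrays of Mki67 lay apart from each other.

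Replication licensing loads the MCM helicase, a ring of MCM2 to MCM7, onto origins with the help of CDC6 and CDT1. None of the 7 tested licensing and helicase genes was called in any comparison. Against AA-supplemented knockouts all 7 had positive differences in AA-deficient knockouts, from 0.0022 to 0.15, with a median of 0.040. In that comparison 7334 of all 14662 genes tested were positive, and so were 21 of 29 other replication genes. Against wild type 4 were positive and 3 negative, from -0.062 to 0.13.

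Among the subunits of the ring, Mcm4 and Mcm6 had the largest differences. Mcm4 was at 0.403 and 0.499 in AA-deficient knockouts and at 0.306 and 0.288 in AA-supplemented knockouts, against 0.321 and 0.325 in wild type. Mcm6 was at 0.295 and 0.353 in AA-deficient knockouts and at 0.198 and 0.215 in AA-supplemented knockouts, against 0.171 and 0.215 in wild type. For both genes the AA-deficient arrays were the highest, while the other groups overlapped for Mcm6 and lay close together for Mcm4. The differences from wild type were 0.13 for Mcm4 (SE 0.046, adjusted p = 0.165 in limma) and 0.13 for Mcm6 (SE 0.043, adjusted p = 0.133). Those from AA-supplemented knockouts were 0.15 (adjusted p = 0.288) and 0.12 (adjusted p = 0.406).

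Mcm2, Mcm5 and Mcm7 differed from wild type by -0.025, 0.047 and -0.016 in AA-deficient knockouts, with overlapping groups. Mcm3 differed by 0.067 (SE 0.040, adjusted p = 0.397 in limma). Cdt1 differed by -0.062 from wild type and by 0.031 from AA-supplemented knockouts. Cdc6, which helps load the ring, and Gins1, a subunit of the active helicase, were below the filter, with values between 0.083 and 0.273 over all arrays.

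Pcna, the sliding clamp of the replicative polymerases, was lowest in AA-supplemented knockouts. It was at 1.18 and 1.23 in AA-deficient knockouts and at 1.13 and 1.02 in AA-supplemented knockouts, against 1.36 and 1.27 in wild type. The difference of AA-supplemented knockouts from wild type was -0.24 (SE 0.054, 1.74-fold lower, adjusted p = 0.199 in limma), the largest of the list in that comparison. A further probe set annotated with the same accessions of Pcna was at 1.14 and 1.16 in AA-deficient knockouts and 1.18 and 1.08 in AA-supplemented knockouts, against 1.25 and 1.24 in wild type. On it too all wild type arrays were the highest, but the knockout groups overlapped.

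Tk1, the thymidine kinase of the salvage route, was at 0.611 and 0.705 in AA-deficient knockouts and at 0.531 and 0.451 in AA-supplemented knockouts, against 0.583 and 0.456 in wild type. The AA-deficient arrays were the highest. The difference was 0.17 against AA-supplemented knockouts (SE 0.059, adjusted p = 0.384 in limma) and 0.14 against wild type (SE 0.059, adjusted p = 0.235). A further probe set of Tk1 showed the same arrays highest, at 0.647 and 0.663. Tyms, the thymidylate synthase, differed from wild type by 0.0098 in AA-deficient knockouts, with an interval from -0.097 to 0.12.

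Mitotic genes were mostly dim, with 5 of 9 below the filter, and none was called. Cdc20, the activator of the anaphase-promoting complex, was at 0.2503 and 0.2477 in AA-deficient knockouts and at 0.322 and 0.355 in AA-supplemented knockouts, against 0.297 and 0.277 in wild type. The AA-deficient arrays were the lowest, with a difference of -0.089 from AA-supplemented knockouts (SE 0.040, adjusted p = 0.523 in limma) and -0.038 from wild type. Plk1, a kinase of mitotic entry, Bub1b, of the spindle checkpoint, and Birc5, survivin, differed from wild type by -0.023, 0.025 and 0.087 in AA-deficient knockouts. Bub1, a kinase of the spindle checkpoint, had the lowest mean of the list. It was at 0.104 and -0.069 in AA-deficient knockouts and 0.046 and -0.094 in AA-supplemented knockouts, against -0.072 and 0.064 in wild type, with all groups overlapping. Cenpe, a kinesin of the kinetochore, was at 0.046 and 0.111 in AA-deficient knockouts and -0.254 and 0.170 in AA-supplemented knockouts, against 0.047 and -0.057 in wild type. The AA-supplemented arrays of Cenpe had the widest gap of any group in the list. The mitotic kinases Aurka, Aurkb and Ttk ranged from -0.017 to 0.221 over all arrays.

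Mki67, the gene of the proliferation marker Ki-67, was below the filter, at 0.054 and 0.256 in AA-deficient knockouts and 0.145 and 0.133 in AA-supplemented knockouts, against 0.038 and 0.013 in wild type. The knockout arrays were all above wild type, and the AA-deficient arrays lay on either side of the supplemented ones. Top2a, the topoisomerase of dividing cells, was at 0.093 and 0.226 in AA-deficient knockouts and 0.193 and 0.191 in AA-supplemented knockouts, against 0.202 and 0.132 in wild type. A further probe set of Top2a was lower on every array, from -0.445 to -0.078, with all groups overlapping. Foxm1, which drives G2 and mitotic genes, was at 0.082 and 0.056 in AA-deficient knockouts and 0.151 and 0.098 in AA-supplemented knockouts, against 0.084 and 0.099 in wild type. Its AA-deficient arrays were the lowest. With no filter on dim genes, 0 of these 11 genes were called by limma in any comparison, and 1, Ccne2, had an unadjusted p under 0.05.

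The arrays of AA-deficient knockouts differed from each other in some of these genes. Array 2 exceeded array 1 by 0.20 for Mki67, the largest gap of the group. It was higher for 23 of the 37 genes in that group, for 20 in AA-supplemented knockouts and for 13 in wild type. For Ccna2 the values were 0.136 on array 1 and 0.291 on array 2 of AA-deficient knockouts.

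Between AA-deficient and AA-supplemented knockouts, which share the genotype, 0 of 26 genes were called by limma, where 0.205% of all genes were and 0.164% were called lower. At an unadjusted p under 0.05 there were 7 genes, and 9.92% of all genes reached it. With eBayes with trend, Ccnd1 and Ccne1 were called lower, while the calls over all genes numbered 154, against 30 without the trend. All AA-deficient arrays were above the AA-supplemented ones for 7 of the 26 genes and below them for 6, where 19.8% and 17.5% of all genes tested were. Between AA-supplemented knockouts and wild type 0 of 26 were called, where 0.00682% of all genes were, and 2 had an unadjusted p under 0.05, where 10.6% of all genes did. There eBayes with trend called Pcna lower, with 94 calls over all genes against 1 without the trend. All AA-supplemented arrays were above wild type for 2 genes and below it for 9, where 19.8% and 18.8% of all genes were. The comparisons share groups, so that their differences are not independent of each other.

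**Figure D3:**
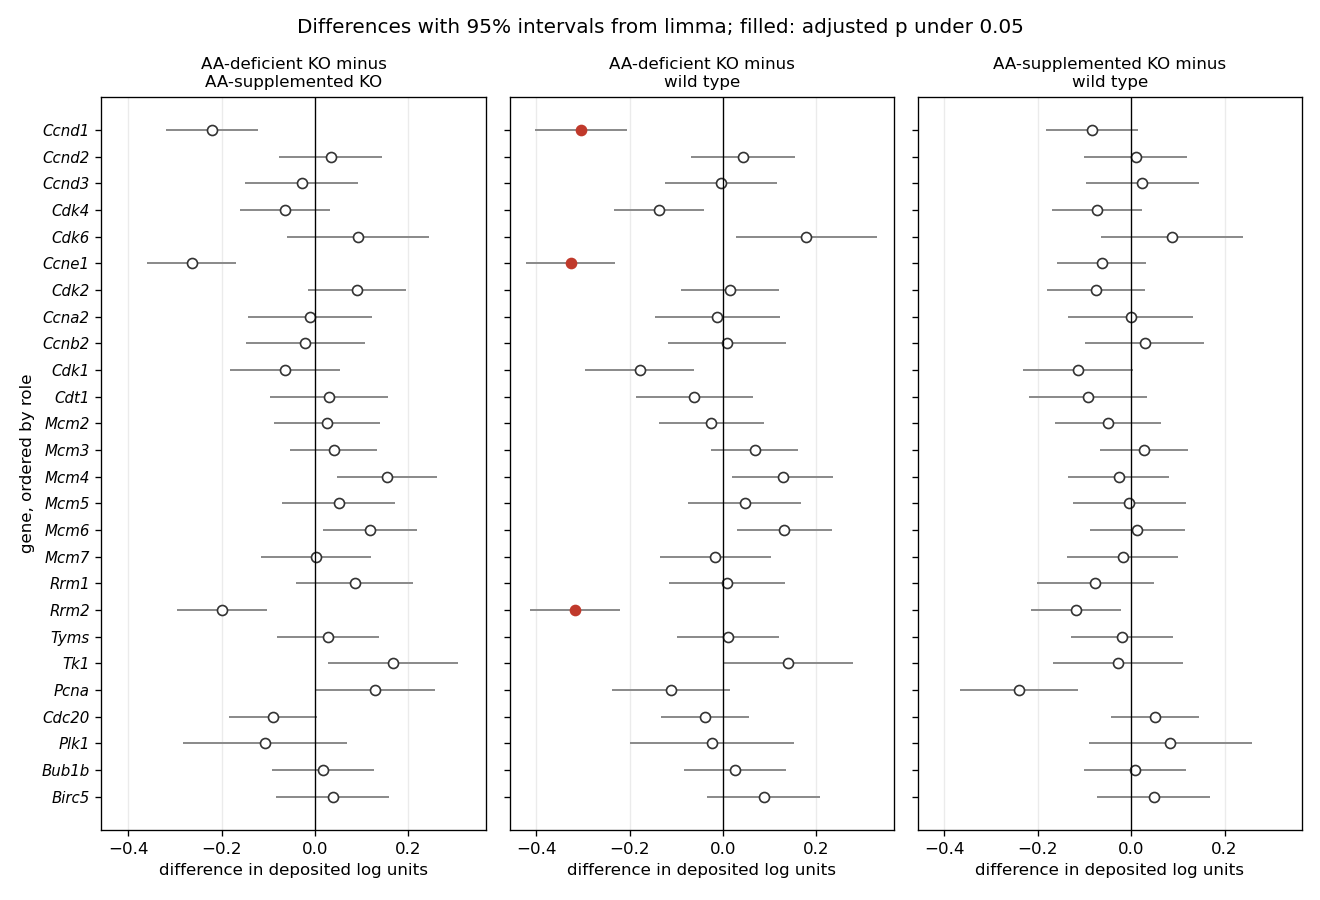
Difference in deposited log units (x axis) for the 26 tested genes (y axis, by role) in each comparison, with 95% intervals as bars. Filled points passed at an adjusted p under 0.05 in limma: Ccnd1, Ccne1 and Rrm2, all lower in the AA-deficient group. Their points in the left panel also lie below 0, at -0.22, -0.26 and -0.20.

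Other genes of the pathway were read from lists of E2F factors, inhibitors, replication and mitosis genes. These lists were chosen with earlier results of these data known. Of 9 tested E2F factors and partners, 1, E2f8, was called lower in AA-deficient knockouts and 0 were called higher, against either other group. Against AA-supplemented knockouts 0.164% of all genes were called lower and 0.0409% higher. Against wild type 1.55% were called lower and 3.08% higher. Between AA-supplemented knockouts and wild type 0 of the 9 were called. E2f8 was at 0.317 and 0.192 in AA-deficient knockouts and at 0.920 and 0.970 in AA-supplemented knockouts, against 1.06 and 0.9996 in wild type. The AA-deficient arrays again lay in the range of Rgn in the knockouts and were not shown to be above background, so that the folds may be lower bounds. In AA-deficient knockouts it was 4.90-fold below the AA-supplemented group (difference -0.69, SE 0.053, adjusted p = 0.0193 in limma) and 5.94-fold below wild type (difference -0.77, SE 0.053, adjusted p = 0.00278). The highest adjusted p among the alternatives was 0.0754 against the AA-supplemented group, where the call was lost without AA-supplemented array 2, without either wild type array and with no filter on dim genes. Against wild type it was 0.0594, and the call was lost without either wild type array. The related E2f7 differed from wild type by -0.031, with an interval from -0.14 to 0.080. The activators E2f1 and E2f3 were at 0.13 (adjusted p = 0.130) and 0.20 (adjusted p = 0.0683), and E2f5 at -0.19 (adjusted p = 0.0605).

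Among 29 tested further replication genes, 1 fell and 1 rose in AA-deficient knockouts against wild type. Of all genes tested, 1.55% were called lower and 3.08% higher in that comparison, so these counts do not set the list apart. In the other comparisons 0 of the 29 were called. Mcm10, which helps start the helicase, was at 0.678 and 0.600 in AA-deficient knockouts and 0.841 and 0.752 in AA-supplemented knockouts, against 0.971 and 0.937 in wild type. It was 2.07-fold lower than in wild type (difference -0.32, SE 0.050, adjusted p = 0.0202 in limma). Rpa1, the large subunit of the protein that coats single-stranded DNA, was at 0.786 and 0.806 in AA-deficient knockouts and 0.704 and 0.625 in AA-supplemented knockouts, against 0.571 and 0.612 in wild type. It was 1.60-fold higher than in wild type (difference 0.20, SE 0.045, adjusted p = 0.0464). Its call was lost in 7 of 15 alternatives, with an adjusted p of up to 0.269. Orc2, of the origin recognition complex, was at -0.19 against wild type (adjusted p = 0.0662). At an unadjusted p under 0.05 the list had 9 of 29 genes between AA-deficient knockouts and wild type, where 20.4% of all genes did. It had 6 between the knockout groups (9.92% of all genes) and 5 between AA-supplemented knockouts and wild type (10.6%). Its median difference between AA-deficient knockouts and wild type was 0.0094. Mcm10 also lost its call without AA-deficient array 2, without either wild type array and with no filter on dim genes (adjusted p of up to 0.169).

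In the remaining lists 0 genes were called by limma in any comparison. Their counts at an unadjusted p under 0.05 between AA-deficient knockouts and wild type are to be read against the 20.4% of all genes that reached it. They held 11 tested pocket proteins, CDK inhibitors and DREAM subunits, of which 1 had an unadjusted p under 0.05 between AA-deficient knockouts and wild type. That gene was Cdkn2c, an inhibitor of CDK4 and CDK6, with a difference of -0.12 (adjusted p = 0.188). Of 19 tested further mitosis genes 2 reached an unadjusted p under 0.05 in that comparison, the kinase Nek2 at 0.17 (adjusted p = 0.0620) and the checkpoint gene Bub3 at -0.13 (adjusted p = 0.142). Of 11 further G1 and growth genes 3 did, with Skp2, of the ligase that degrades CDK inhibitors, at -0.16 (adjusted p = 0.118). The others were Max at -0.095 (adjusted p = 0.222) and, on the other side, Cdk8 at 0.10 (adjusted p = 0.232).

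Markers of other cells that could carry cycling RNA were read beside the list. Of the tested markers, 4 of T cells, 2 of B and plasma cells, 5 of erythroid precursors, 3 of neutrophils and myeloid precursors, 8 of Kupffer cells, 8 of stellate cells and 3 of cholangiocytes, 0 were called in any comparison. Of 8 endothelial markers 6 had positive and 2 negative differences between AA-deficient knockouts and wild type, the lowest at -0.073 for Clec4g, and 1 was called. Stab2, a scavenger receptor of sinusoidal endothelium, was 1.73-fold higher in AA-deficient knockouts against wild type (adjusted p = 0.0320 in limma). Of all genes tested, 3.08% were called higher in that comparison. The call of Stab2 was not followed through the alternatives. The mean value of the 8 endothelial markers was 1.08 and 1.13 in AA-deficient knockouts and 1.06 on each array of AA-supplemented knockouts, against 1.03 and 1.05 in wild type. The mean value of the 8 neutrophil and myeloid precursor markers was 0.110 and 0.115 in AA-deficient knockouts and 0.139 and 0.183 in AA-supplemented knockouts, against 0.213 and 0.157 in wild type. On this mean the AA-deficient arrays were the lowest and the other groups overlapped, but 5 of the 8 markers were below the filter. All 3 tested markers had negative differences from wild type in AA-deficient knockouts, but for 0 of them were the groups apart. Against AA-supplemented knockouts 2 of the 3 were positive and 1 negative. The 8 Kupffer cell markers went the other way, all with positive differences from wild type in AA-deficient knockouts (median 0.048). Alas2, an erythroid marker named here after its values were seen, had the order of Ccnd1, Ccne1 and Rrm2. It was at 1.46 and 1.41 in AA-deficient knockouts and 1.51 and 1.48 in AA-supplemented knockouts, against 1.56 and 1.53 in wild type (adjusted p = 0.191 for AA-deficient knockouts against wild type in limma). It was the only 1 of the 5 tested erythroid markers with a negative difference in that comparison. The other 4 were positive, and the median of the 5 was 0.058. The part of these markers in the differences of the listed genes was not tested. The 9 hepatocyte markers averaged 2.11 on each array of AA-deficient knockouts and 2.07 and 2.21 in AA-supplemented knockouts, against 2.10 and 2.04 in wild type, with 0 called.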

How the data were processed

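Mouse liver RNA from 6 samples, 2 in each of 3 groups, was hybridised to Affymetrix whole-transcript gene arrays, per the labels' protocols. The deposited values are on a log scale, taken here as log10. The sources used here do not give their summarisation, normalisation or log base. From -0.575 at the bottom to 2.51 at the top, they cover 1213-fold as log10 but 8.48-fold as log2. Test results are the same for either base.

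Of 34760 probe sets, 3995 held no value. Of the other 30765, 21161 had 1 gene symbol in the platform annotation, 1150 several and 8454 none. The probe set with the highest mean stood for each of 19550 genes, and the 14662 genes whose mean reached the 25th percentile (0.185) were tested. All 37 genes matched RefSeq by Entrez identifier. limma 3.58.1 in R 4.3.3 was fitted to all 6 arrays with 1 mean per group (residual degrees of freedom 3, prior 4.89). Tests were two-sided, with p-values adjusted by the Benjamini-Hochberg method over all genes tested, with a threshold of 0.05. The fit was tested on simulated data.

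The members, lists and tests were chosen with earlier results of these data known. Every gene of the list was named. Values by array were set for genes called, for the 8 of widest group means and for the 4 highest and 4 lowest means. Those of Ccnd2, Cdk2, Mcm4, Mcm6, Cdc20, Mki67, Top2a and Ccna2 were added after their values were seen. From other lists, called genes were named, with up to 3 of smallest p, and E2f1, E2f7, Myc, Clec4g and Alas2, as well as the genes plotted singly and the promoters printed, were added after their values were seen. Promoter windows came from RefSeq (GRCm38.p6), with the start listed first in the table for each gene. Alternatives covered the filter, normalisation, prior, probe set choice, replicate block and each array left out.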

Additional observations from a re-analysis of the deposited data

How the results depend on the processing

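The falls of Ccnd1, Ccne1 and Rrm2 against wild type kept their direction under every alternative run and passed under every one that kept all 6 arrays, except that Rrm2 was not tested with a filter at the 50th percentile. Their differences ranged from -0.32 to -0.28 for Ccnd1, from -0.35 to -0.30 for Ccne1 and from -0.34 to -0.30 for Rrm2, with the highest adjusted p at 0.132, 0.120 and 0.120. With single arrays left out, the number of genes of the list called against wild type in AA-deficient knockouts lay between 0 and 3, and by the F test between 0 and 3. It stayed at 0 in both other comparisons. The F test called 0 with no filter on dim genes. Between AA-deficient and AA-supplemented knockouts 1 gene was called with a filter at the 50th percentile, and 2 were with a prior trend and with a trend and robust fit. Between AA-supplemented knockouts and wild type 1 was called with either of these priors. The median difference of the list, with arrays left out, lay between -0.0040 and 0.041 for AA-deficient against AA-supplemented knockouts, between -0.023 and 0.014 for AA-deficient knockouts against wild type and between -0.028 and -0.018 for AA-supplemented knockouts against wild type, where centring of arrays on their medians gave -0.033. Deviations of same-numbered arrays correlated at -0.37 between the knockout groups and at 0.36 between AA-deficient knockouts and wild type. Between AA-supplemented knockouts and wild type they correlated at -0.28. The signs differed, but with 2 arrays in a group the sign depends on which array is numbered 1. The signs therefore cannot decide whether the arrays were paired. Whether the arrays were paired or processed together in a way that the numbers do not follow was not tested. With the replicate number as a block, 3 genes of the list were called in AA-deficient knockouts against wild type and 0 by the F test. Values near the dim end cannot be separated from background, and the cause of these dependences was not tested.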

Other observations

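Myc, a growth-promoting transcription factor upstream of cyclins, was chosen here after its values were seen. It was at 0.877 and 0.272 in AA-deficient knockouts and at 0.747 and 0.480 in AA-supplemented knockouts, against 0.983 and 0.332 in wild type. Array 1 was the higher array in each group, and the gap within a group exceeded every difference between group means. Its difference between AA-deficient knockouts and wild type was -0.083 (SE 0.24, adjusted p = 0.892 in limma).

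Of the further replication genes, Uhrf1, which maintains DNA methylation at forks, was at 0.16 in AA-supplemented knockouts against wild type (SE 0.040, adjusted p = 0.225 in limma). Dut, the dUTPase, was at -0.16 in the same comparison (SE 0.041, adjusted p = 0.268). Neither passed.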
